A study of Mus musculus with 12 samples.

Results

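The serpin genes Serpinb9, Serpinb9b, Serpinb6a, Serpinb6b and Serpine2, known as inhibitors of granzymes or of related proteases, were followed across the immune cells of melanomas in mice that had received tumour-specific T cells. These 5 genes were taken by name out of 32285 gene rows, and all 5 were found in the deposited matrices. The set was chosen by their T cell counts in the CAL-101 mice against the control mice, a contrast in which Serpinb9b was among the largest falls. The T cell difference between the groups is therefore given as a description with no test. The study asked how exposing CD8+ T cells in culture to an inhibitor of phosphoinositide 3-kinase delta alters those cells and the tumour they enter.

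The CAL-101 group was 3 mice given T cells cultured with CAL-101, or idelalisib, a drug that blocks the delta form of this kinase and the control group was 3 mice given T cells cultured with vehicle. All 6 hosts were B6.129S7-Rag1tm1Mom/J mice, which lack Rag1 and so make no mature T or B cells of their own, with an intradermal B16-F10 melanoma. Pmel Thy1.1 CD8+ T cells, which carry a receptor for a melanocyte antigen, were injected into each mouse by the retro-orbital route. The drug was given to the cells in culture and not to the mouse, so natural killer (NK) cells and myeloid cells in both groups belonged to untreated hosts. Live CD45.2+ cells sorted from a part of each tumour gave 1 library per mouse. The sources used here give neither age nor sex.

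The 6 libraries held 6152 to 7217 cells in CAL-101 mice and 7716 to 9147 in control mice, with medians of 7508 to 8977 and 6767 to 8095 RNA UMIs (unique molecular identifiers, each counting 1 captured transcript) per cell. Cells carry the authors' deposited labels and 1 of 14 cluster numbers. The labels for T cells in general and for CD8+ and CD4+ T cells are merged here as T cells. The T cell markers summed to 12750 to 13549 CPM (counts scaled to the total RNA UMIs of the cells summed) in CAL-101 T cells and 10993 to 12355 CPM in control T cells. The same markers reached 1185 to 1552 CPM in NK cells, mostly from Trbc1 and Trbc2. NK markers summed to 1941 to 2208 CPM in CAL-101 NK cells and 1773 to 2028 CPM in control NK cells. Of 45228 distinct barcodes, 249 occurred in more than 1 library.

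Granzymes are serine proteases that T cells and NK cells store in granules and release, with the pore-forming protein perforin, into a target cell. Serpins inhibit proteases by offering a reactive loop that the protease cuts, after which enzyme and inhibitor stay joined and both are spent. Clade B serpins stay inside the cell that makes them, and in killer cells Serpinb9 is known for protecting the cell from granzyme B that leaks out of its own granules.

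The clade B genes lie on mouse chromosome 13 (build GRCm38) in the order Serpinb6b (32956811 to 32979067), Serpinb9 (32997061 to 33017955), Serpinb9b (33027414 to 33040588) and Serpinb6a (33917918 to 34002794). Serpine2 lies on chromosome 1 (79794317 to 79858665). Serpinb9 and Serpinb9b are direct neighbours, 9.46 kb apart, and Serpinb6b ends 18.0 kb before Serpinb9. Of all pairs among the 5 genes, Serpinb9 and Serpinb9b had the most similar promoters, with 154 identical bases in an alignment of the 250 bases before their RefSeq start sites (61.6%), against 40.8% to 52.8% for the other pairs. Their proximal 120 bases are shown because this pair separated in the T cell data, as described further on. Capitals mark runs of at least 8 bases that are identical in the alignment of the pair. The sequences are from RefSeq on GRCm38.p6, plus strand, at chr13:33004421-33004540 and chr13:33027294-33027413. The start used for Serpinb9 lies inside the span given above, as does that for Serpinb6b. Other starts of these genes were not compared.
Serpinb9: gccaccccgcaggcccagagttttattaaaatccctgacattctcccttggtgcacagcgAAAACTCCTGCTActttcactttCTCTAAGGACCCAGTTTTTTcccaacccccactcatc
Serpinb9b: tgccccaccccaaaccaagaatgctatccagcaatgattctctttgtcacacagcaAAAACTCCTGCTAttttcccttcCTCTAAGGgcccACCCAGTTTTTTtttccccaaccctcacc

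Each promoter shown has 33 of its 120 bases in such runs. The core of the interferon-stimulated response element was searched on both strands of windows of the 250 bases before the start. It occurred 1 time for Serpinb9, 46 bases before the start used, and not for Serpinb9b. Serpinb6a has 2 windows in the table, and 1 of them held it 84 bases before its start, while the windows of Serpinb6b and Serpine2 held none. Of 32851 promoter windows of the same length, 978 (2.98%) held it. The letters TGTGGT (RUNX, in 14% of windows) and TGANTCA (AP-1, in 6.75%) were in no window of the 5 genes.

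In T cells, Serpinb9b, reported as an inhibitor of granzyme M, had 11.5, 7.63 and 10.4 CPM in the CAL-101 mice, against 113, 82.7 and 110 CPM in the control mice. The groups were far apart, with every control mouse above every CAL-101 mouse. The means were 9.85 ± 2.01 CPM in CAL-101 mice and 102 ± 16.9 CPM in control mice (SD, n = 3 each). The log2 difference was -3.42 with a standard error of 0.18, a level 10.7-fold lower in CAL-101 T cells. Of 16734 genes in the fit, 11 had a more negative log2 difference, so that Serpinb9b ranked 12 from the bottom.

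Serpine2 (protease nexin-1) is a secreted serpin known for inhibiting thrombin and urokinase and for forming complexes with granzyme A. It had 19.0, 13.4 and 15.8 CPM in CAL-101 T cells, against 65.1, 48.7 and 63.3 CPM in control T cells. The groups did not overlap, and the log2 difference was -1.92 (standard error 0.15).

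Serpinb6b is known in mouse as an inhibitor of granzyme A. It had 124, 143 and 181 CPM in CAL-101 T cells and 375, 346 and 370 CPM in control T cells. The CAL-101 mice were spread more widely than the control mice, and the groups stayed apart, with a log2 difference of -1.32 (standard error 0.13).

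Serpinb9 (Spi6), the inhibitor of granzyme B, had 121, 140 and 160 CPM in CAL-101 T cells, against 282, 256 and 285 CPM in control T cells. Its log2 difference was -1.01 (standard error 0.10), a level 2.01-fold lower in CAL-101 mice, without overlap. Its neighbour Serpinb9b differed more: Serpinb9b UMIs were 0.0716 ± 0.0212 of the Serpinb9 UMIs in CAL-101 T cells and 0.371 ± 0.0421 in control T cells (SD, n = 3 each).

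Serpinb6a (Spi3), whose human counterpart inhibits cathepsin G, differed least. It had 82.8, 86.3 and 85.4 CPM in CAL-101 T cells and 144, 121 and 139 CPM in control T cells. The log2 difference was -0.71 (standard error 0.07), again with no overlap.

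All 5 genes were thus lower in every CAL-101 mouse than in every control mouse. Over the 16734 genes fitted in T cells, 15.1% had all CAL-101 mice below all control mice, 19.1% passed an adjusted p under 0.05 in edgeR in either direction, and 9.63% passed it as lower. Since this contrast put the genes forward, nothing is read from their count.

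**Figure D1:**
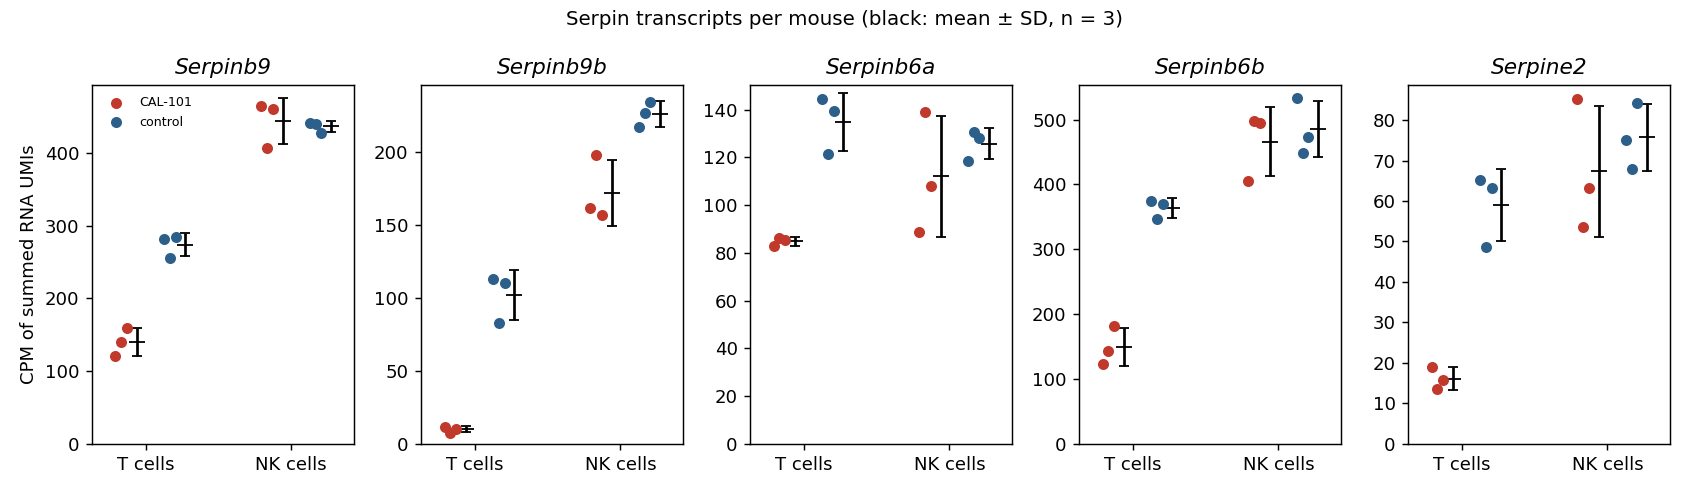
Level of each serpin in CPM of summed RNA UMIs (y axis, from 0, scaled per gene) in T cells and NK cells; each point is a mouse, CAL-101 in red to the left of control in blue, with black marks for mean ± SD (n = 3). In T cells each gene has its CAL-101 points below its control points, Serpinb9b most of all (9.85 against 102 CPM), whereas in NK cells the groups overlap except for Serpinb9b (172 against 226 CPM).

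In NK cells, which came from the host and were not cultured with the drug, 1 of the 5 genes passed the test. Serpinb9b had 162, 198 and 157 CPM in CAL-101 mice and 217, 227 and 234 CPM in control mice. It was lower in all 3 CAL-101 mice than in any control mouse, with a log2 difference of -0.43 (standard error 0.10, edgeR adjusted p = 0.0366). Over 14028 genes tested in NK cells, 4.89% passed an adjusted p under 0.05, with 1.92% lower and 2.97% higher, and 10.5% had all CAL-101 mice below all control mice. The call was lost (adjusted p = 0.104 to 0.153) on leaving out CAL-101 mouse 1, CAL-101 mouse 3, control mouse 1 or control mouse 3. It was also lost in clusters 0, 7, 9 and 13 alone, where the log2 difference was -0.32 and the adjusted p was 0.208.

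The other 4 genes did not pass the test in NK cells. Serpinb9 had 465, 407 and 461 CPM in CAL-101 NK cells and 442, 441 and 428 CPM in control NK cells. These mice overlapped, and the 95% interval of the log2 difference was narrow, from -0.12 to 0.11 (log2 difference -0.01, edgeR adjusted p = 0.979). Serpinb6b had 405, 498 and 495 CPM in CAL-101 NK cells and 533, 449 and 473 CPM in control NK cells (log2 difference -0.09, interval -0.28 to 0.11, edgeR adjusted p = 0.658).

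The remaining pair was less precisely measured. Serpinb6a had 88.9, 139 and 108 CPM in CAL-101 NK cells and 119, 131 and 128 CPM in control NK cells, with an interval of -0.49 to 0.07 (log2 difference -0.21, edgeR adjusted p = 0.421). Its log2 difference ran from -0.41 to -0.05 when 1 mouse was left out, with -0.41 (edgeR adjusted p = 0.0565) without CAL-101 mouse 2. Serpine2 had 85.1, 53.5 and 63.3 CPM in CAL-101 NK cells and 75.0, 67.9 and 84.3 CPM in control NK cells, with an interval of -0.45 to 0.10 (log2 difference -0.18, edgeR adjusted p = 0.499). Without 1 mouse it ran from -0.39 (without CAL-101 mouse 1) to -0.06 (without CAL-101 mouse 2). The difference between the T cell and NK cell effects was not tested.

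Shares of positive cells were compared after thinning each cell to 1600 UMIs, which left out 2615 T cells and 665 NK cells with fewer. In T cells, 1.17 ± 0.42% of CAL-101 cells and 10.0 ± 0.70% of control cells had a Serpinb9b UMI (SD, n = 3 mice each). Cells labelled neutrophils, a lineage outside the lymphocytes, gave 1.00% (4 of 400 cells, exact 95% interval 0.273% to 2.54%). All 4 positive neutrophils came from control mice, 3 from mouse 1 and 1 from mouse 3, and none came from the 96 neutrophils of CAL-101 mice, which allows a share of up to 3.12% there (3 counts, counting error only). The CAL-101 T cell shares were 1.64%, 0.822% and 1.05%, all under that limit, so a difference from background was not detectable at this depth. Before thinning, the median depth was 9470 UMIs for cells labelled T cells and 3176 for neutrophils. Serpinb9 was found in 16.5 ± 1.75% of CAL-101 T cells and 30.4 ± 0.86% of control T cells, and Serpinb6b in 15.7 ± 2.68% and 35.0 ± 1.46% of CAL-101 and control T cells. Of 400 neutrophils, 16 had a Serpinb9 UMI and 20 a Serpinb6b UMI, shares below both groups of T cells.

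In NK cells, thinned shares for Serpinb9b were 15.2 ± 1.33% in CAL-101 mice and 20.4 ± 1.09% in control mice. The exact 2-sided permutation test gave p = 0.1, the smallest that 3 mice against 3 allow. For Serpinb9 the NK shares were 46.4 ± 3.28% in CAL-101 mice and 47.4 ± 0.76% in control mice (exact permutation p = 0.8). The exact p was 0.4 for Serpinb6a, 0.5 for Serpinb6b and 1 for Serpine2. The Serpinb6b share differed by -3.52 percentage points, by -0.344 without CAL-101 mouse 1, and by -7.24 without thinning (exact permutation p = 0.1).

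Across cell labels, the order of levels differed between the genes. Values set side by side are levels of 1 gene in CPM, since 3′ counts of different genes need not capture transcripts equally. Serpinb9 was highest in NK cells (441 ± 21.3 CPM over 6 mice), followed by T cells, with 140 ± 19.4 CPM in CAL-101 mice and 274 ± 15.7 CPM in control mice. Summed over all mice, dendritic cells (127 cells) had 124 CPM (exact 95% interval 109 to 141, counting error only), within the spread of CAL-101 T cells. Monocytes followed at 38.0 ± 13.7 CPM over 6 mice and neutrophils at 22.8 ± 13.9 CPM over the 5 mice with at least 20 such cells, and these neighbours overlapped. Cells with these labels also held T cell transcripts. Trbc2 had 1122 CPM in monocytes, 875 CPM in neutrophils and 1152 CPM in dendritic cells, against 8602 CPM in T cells. Monocytes also held 1815 CPM of the melanoma marker Dct. How much of their serpin counts came from other cells was not tested.

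Serpinb9b was highest in NK cells (199 ± 33.3 CPM over 6 mice), and T cells had 9.85 ± 2.01 CPM in CAL-101 mice and 102 ± 16.9 CPM in control mice. Monocytes had 13.8 ± 8.55 CPM over 6 mice, neutrophils 5.97 ± 5.87 CPM over 5 mice and dendritic cells 7.46 CPM as a sum over all mice (interval 4.08 to 12.5). By group, monocytes had 7.77 ± 7.25 CPM in CAL-101 mice and 19.8 ± 4.65 CPM in control mice, so CAL-101 T cells overlapped the monocytes of the same mice. In CAL-101 mice the dendritic cells had 0 UMIs of Serpinb9b, as did the neutrophils of the 2 mice with at least 20 of them. In all, 49.5% of Serpinb9b UMIs came from NK cells, which held 20.4% of all RNA UMIs. For Serpinb9, Serpine2, Serpinb6b and Serpinb6a, NK cells gave 35.7%, 34.2%, 32.1% and 21.9% of the UMIs.

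Serpinb6b followed Serpinb9 in order, with 475 ± 44.3 CPM in NK cells over 6 mice. Its sum in dendritic cells was 171 CPM (interval 153 to 191), next to CAL-101 T cells at 149 ± 29.2 CPM, and monocytes (45.8 ± 39.96 CPM) and neutrophils (27.2 ± 18.3 CPM) were lower. Dendritic values came from 11 to 39 cells per mouse and ranged widely, with Serpinb6b at 465 CPM in CAL-101 mouse 3 and 30.3 CPM in control mouse 1. Serpinb6a was the most even of the 5. It had 84.8 ± 1.83 CPM in CAL-101 T cells and 135 ± 12.2 CPM in control T cells, with NK cells between them at 119 ± 18.2 CPM. Monocytes, at 82.6 ± 26.5 CPM over 6 mice, overlapped CAL-101 T cells, and neutrophils were the lowest at 33.1 ± 6.18 CPM. Serpine2 was near background outside T and NK cells, at 2.13 CPM in dendritic cells (4 UMIs in all) and 6.47 ± 5.98 CPM in monocytes. B cells, basophils and progenitors had 8, 13 and 7 cells and are not ranked.

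The 5 deposited clusters that hold most T cells differed in their serpin levels. Cluster 3 was the highest for each of the 5 genes in control mice except Serpine2, and cluster 5 held the least Serpinb9b and Serpine2. In cluster 3 Serpinb9b averaged 19.3 ± 6.75 CPM in CAL-101 mice and 130 ± 18.4 CPM in control mice. In cluster 5 it averaged 2.22 ± 0.87 CPM in CAL-101 mice and 8.64 ± 3.23 CPM in control mice. Clusters 1, 2 and 4 lay between, at 4.14, 6.46 and 5.19 CPM in CAL-101 mice and 56.0, 88.7 and 57.9 CPM in control mice. The Serpinb9b level was thus 3.89-fold lower in CAL-101 mice in cluster 5, 6.73-fold lower in cluster 3 and 11.2-fold to 13.7-fold lower in clusters 1, 2 and 4.

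The other genes showed smaller ratios in the same clusters. Serpinb6b averaged 72.4 CPM in CAL-101 mice and 224 CPM in control mice in cluster 1 (3.09-fold lower), but 267 CPM in CAL-101 mice and 471 CPM in control mice in cluster 3 (1.77-fold lower). Serpine2 was 3.97-fold lower in cluster 4 and 1.52-fold lower in cluster 3, where it averaged 47.6 ± 11.6 CPM in CAL-101 mice and 72.6 ± 10.5 CPM in control mice. Serpinb9 ranged from 2.16-fold lower in cluster 4 to 1.34-fold lower in cluster 3, and Serpinb6a from 1.61-fold lower in cluster 2 to 1.12-fold lower in cluster 5. For Serpinb6a in cluster 5 the mice of both groups overlapped, with 89.2, 88.4 and 89.6 CPM in CAL-101 mice and 105, 111 and 82.1 CPM in control mice. In clusters 1 to 4 all 5 genes had no overlap between the groups, and 4 of 5 had none in cluster 5. Among all genes with at least 30 UMIs, 12.2%, 11.4%, 9.79%, 11.1% and 9.04% had all CAL-101 mice below all control mice in clusters 1 to 5. These clusters contain cells of the contrast that chose the genes, so their counts are description too.

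The makeup of the T cells moved with the group. Cluster 3, the serpin-rich one, held 7.39 ± 3.08% of T cells in CAL-101 mice and 27.3 ± 6.39% in control mice, while cluster 5 held 21.8 ± 0.44% in CAL-101 mice and 2.30 ± 0.68% in control mice. When each mouse was given the same mean cluster makeup, the log2 differences were -2.72 for Serpinb9b, -1.23 for Serpine2, -0.95 for Serpinb6b, -0.71 for Serpinb9 and -0.46 for Serpinb6a, each smaller in size than with the mice's own makeup. Clusters were drawn by the authors from the same transcripts, so makeup and level are not independent measures.

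NK cell transcripts also varied among the T cells. The 8 NK markers summed to 172, 111 and 93.6 CPM in CAL-101 T cells and to 128, 218 and 164 CPM in control T cells, with none at 0 over all T cells. Clusters led by NK cells supplied 64.2%, 26.6% and 17.3% of the Serpinb9b UMIs of T cells in CAL-101 mice and 9.5%, 18.8% and 11.5% in control mice. Cells labelled T in cluster 0, an NK cluster, had 107 ± 31.6 CPM of Serpinb9b in CAL-101 mice and 153 ± 34.3 CPM in control mice, with overlap. In clusters 1 to 5 alone the log2 difference of Serpinb9b was -3.97. Without T cells with NK marker UMIs it was -4.30 for Serpinb9b, -2.33 for Serpine2, -1.55 for Serpinb6b, -1.20 for Serpinb9 and -0.74 for Serpinb6a. Each was larger in size than in all T cells, Serpinb6a only slightly (-0.71 there). The filter left 2449 of 3993 T cells in CAL-101 mouse 1 and 3402 of 5958 in control mouse 1. Their RNA UMIs fell from 53687665 to 23769944 and from 78902143 to 33139778. Klre1, an NK marker used, had a UMI in 28.7% of all T cells. The cause of the shift was not tested.

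**Figure D2:**
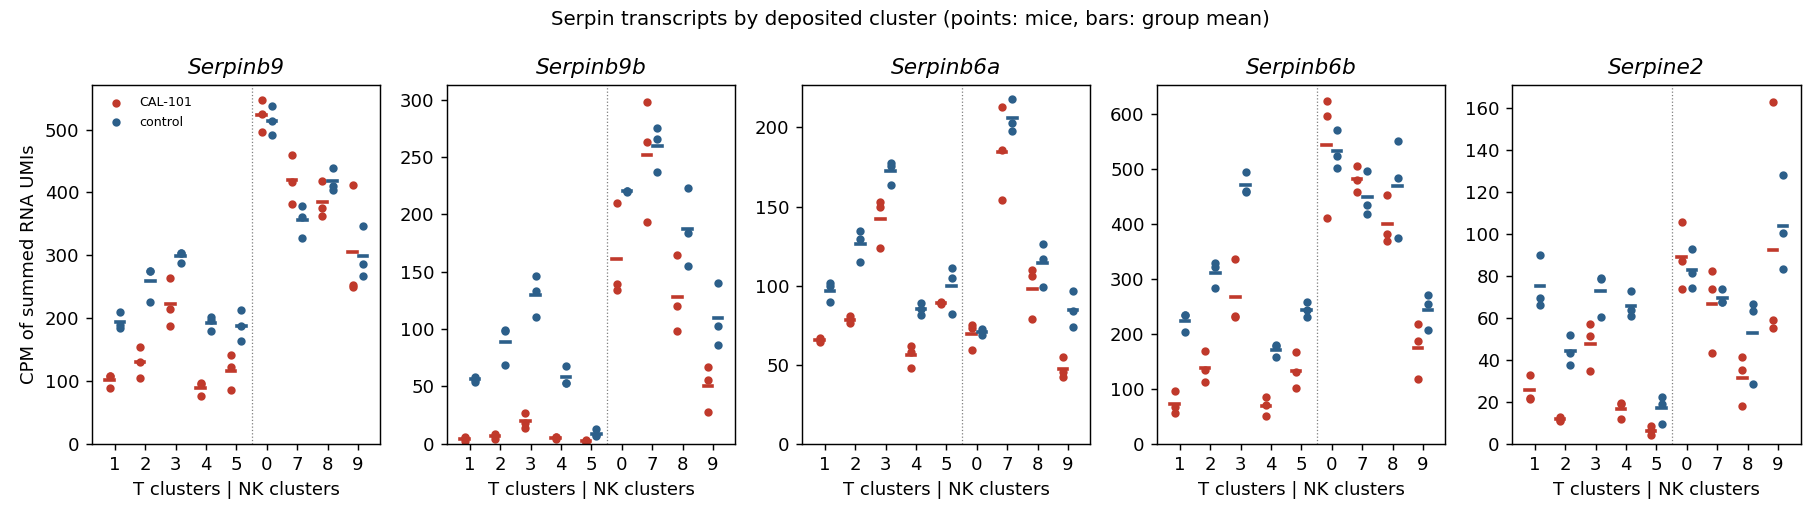
Level of each serpin in CPM of summed RNA UMIs (y axis, from 0, scaled per gene) in T cells of clusters 1 to 5 and NK-labelled cells of clusters 0, 7, 8 and 9; points are mice, CAL-101 in red left of control in blue, and bars are group means. Serpinb9b is near 0 in the CAL-101 T clusters (2.22 to 19.3 CPM) and up to 130 CPM in control, while in NK cluster 7 the groups overlap for it.

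Among the 4 larger clusters of NK-labelled cells (0, 7, 8 and 9), cluster 7 had the most Serpinb9b and Serpinb6a. Serpinb9b there had 298, 263 and 193 CPM in CAL-101 mice and 237, 266 and 275 CPM in control mice, which overlapped. In cluster 0 it had 139, 210 and 134 CPM in CAL-101 mice and 220, 221 and 220 CPM in control mice, so that all CAL-101 mice were lower. In cluster 9 the averages were 49.8 ± 20.5 CPM in CAL-101 mice and 110 ± 27.6 CPM in control mice, again without overlap. Serpinb9b was therefore lower without overlap in 2 of these 4 clusters (0 and 9), where 9.82% and 7.21% of genes with at least 30 UMIs were lower without overlap. Serpinb6a was lower in cluster 9 alone (47.5 ± 6.79 CPM in CAL-101 mice and 84.7 ± 11.6 CPM in control mice), and none of the 5 was in clusters 7 and 8, where the shares were 9.07% and 6.7%. Cluster 13, with 67 NK-labelled cells in all mice, was higher still for both genes when summed over the mice. It had 526 CPM of Serpinb9b (exact 95% Poisson interval 465 to 592) and 537 CPM of Serpinb6a (476 to 605), too few cells per mouse to compare the groups. Serpinb9 in cluster 7 ran the other way, with 417, 382 and 460 CPM in CAL-101 mice, all above the 379, 361 and 327 CPM of control mice, as were 12% of genes with at least 30 UMIs there.

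Granzymes, some of them known targets of these serpins, were measured in the same cells. Of the 10 granzyme genes, 8 fell in CAL-101 T cells (edgeR, adjusted p under 0.05) and none rose, with a median log2 difference of -1.93 beside 0.00 over all genes tested. Among all genes tested in T cells, 9.63% passed as lower. The least abundant of the 8 averaged only 0.0472 CPM in CAL-101 T cells and 0.218 CPM in control T cells. The list was chosen with earlier results of these data known. Gzma, a tryptase, averaged 177 ± 109 CPM in CAL-101 T cells and 1147 ± 76.7 CPM in control T cells (log2 difference -2.74, standard error 0.37, edgeR adjusted p = 0.0026). Gzmb, which cuts caspases and Bid and is the target of Serpinb9, averaged 879 ± 176 CPM in CAL-101 mice and 1936 ± 525 CPM in control mice (log2 difference -1.18, edgeR adjusted p = 0.00869). Gzmc and Gzmf, members of the granzyme B cluster, had log2 differences of -1.69 (edgeR adjusted p = 0.00164) and -3.18 (edgeR adjusted p = 0.00877).

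Granzyme M, the reported target of Serpinb9b, was scarce. Gzmm averaged 4.72 ± 0.43 CPM in CAL-101 T cells and 7.56 ± 2.99 CPM in control T cells and did not pass (log2 difference -0.72, edgeR adjusted p = 0.0736). In NK cells it averaged 6.26 ± 1.03 CPM in CAL-101 mice and 6.29 ± 1.10 CPM in control mice. In NK cells no granzyme of 10 passed the test, and 3082 of the 14028 genes had an unadjusted p under 0.05. The closest were Gzmb at 2775 ± 159 CPM in CAL-101 mice and 2262 ± 344 CPM in control mice (log2 difference 0.27, edgeR adjusted p = 0.181) and Gzmc (log2 difference 0.41, edgeR adjusted p = 0.346). Gzma, at 6270 ± 304 CPM in CAL-101 mice and 7032 ± 1282 CPM in control mice, and Gzmf had adjusted p of 0.372 and 0.386.

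Of 12 genes of granule loading and release, 2 fell and 2 rose in T cells, with a median log2 difference of -0.02. The shares over all genes tested in T cells were 9.63% lower and 9.46% higher. Prf1, perforin, averaged 98.7 ± 7.33 CPM in CAL-101 T cells and 204 ± 37.6 CPM in control T cells (log2 difference -1.09, edgeR adjusted p = 0.0016). Srgn, the granule proteoglycan serglycin, fell by 0.22 on the log2 scale (edgeR adjusted p = 0.0232). Unc13d, which primes granules for fusion, and Lamp1, a granule membrane protein, each rose by 0.28 (edgeR adjusted p = 0.0227 and 0.0496). None of the 12 passed in NK cells, where the lowest adjusted p belonged to Rab27a (log2 difference -0.27, edgeR adjusted p = 0.0812), Cst7 (0.26, 0.137), Stxbp2 (-0.15, 0.263) and Srgn (-0.16, 0.272).

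Within single T cells the serpins were described beside Gzmb and Gzma, in T cells of clusters 1 to 5 thinned to 1600 UMIs. These are not the known targets of each serpin, and Gzmm was not used. A Gzmb UMI was found in 42.2 ± 9.15% of these cells in CAL-101 mice and 70.5 ± 10.9% in control mice, and a Gzma UMI in 4.91 ± 2.88% and 40.9 ± 2.39% of CAL-101 and control cells. In each of the 6 mice, all 5 genes had a higher level in cells with a Gzmb UMI than in cells without one. The share of all genes that do the same was not computed, so nothing is read from this count. Over all T cells, Serpine2 was higher with a Gzmb UMI in 5 of 6 mice, and the other genes in all 6. The exception was control mouse 2, where Serpine2 had 49.8 CPM with Gzmb and 51.2 CPM without. For Serpinb9b in clusters 1 to 5 the averages in CAL-101 mice were 7.73 CPM with and 3.1 CPM without. In control mice they were 91.9 CPM with and 33.8 CPM without. The CAL-101 values rest on only 10, 25 and 43 Serpinb9b UMIs with Gzmb and 13, 9 and 16 without. CAL-101 cells with a Gzmb UMI still had less Serpinb9b than control cells without one, at 6.04, 5.59 and 11.6 CPM in the CAL-101 mice, against 29.0, 35.6 and 36.7 CPM in the control mice. For Serpinb9 the averages were 154 CPM with and 93.7 CPM without in CAL-101 mice, and 247 CPM with and 204 CPM without in control mice. These are descriptions, since cells of 1 mouse share a library and a thinned cell without a UMI may still express the gene.

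**Figure D3:**
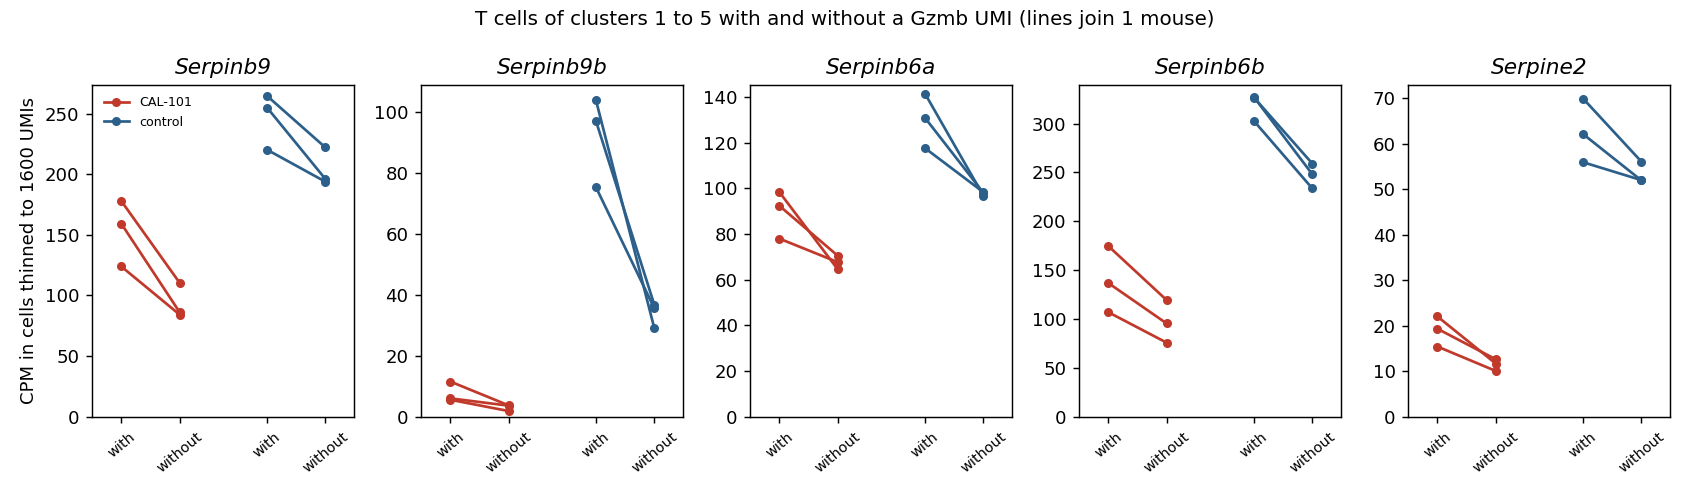
Level of each serpin in CPM (y axis, from 0, scaled per gene) in T cells of clusters 1 to 5 thinned to 1600 UMIs, with or without a Gzmb UMI; each line joins the values of 1 mouse, CAL-101 in red left of control in blue. Every line falls towards the cells without Gzmb, and the lines of the groups stay apart for each gene but Serpinb6a.

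A Gzma UMI marked the genes less evenly. In control T cells of clusters 1 to 5, Serpinb9b averaged 98.9 CPM with a Gzma UMI and 60.2 CPM without, higher in each of the 3 mice. In CAL-101 mice the values with a Gzma UMI were 4.66, 7.14 and 0 CPM, against 4.39, 3.57 and 7.65 CPM without. Those with Gzma rest on 2, 2 and 0 UMIs of Serpinb9b, so no direction can be read. Over all T cells, the T-labelled cells of NK clusters included, Serpinb9b averaged 48.9 CPM with Gzma and 4.82 CPM without in CAL-101 mice and 116 CPM with and 62.4 CPM without in control mice, higher with it in all 6 mice. Serpinb6a was higher with Gzma in 2 of 6 mice only. In NK cells Serpinb6a was lower with a Gzma UMI in all 6 mice, averaging 75.6 CPM with and 139 CPM without in CAL-101 mice and 87.2 CPM with and 163 CPM without in control mice. Serpinb9 in NK cells stood the other way, at 490 CPM with and 291 CPM without in CAL-101 mice. In control mice it had 488 CPM with and 319 CPM without. With a Gzmc UMI both directions reversed in NK cells. Serpinb6a was then higher in all 6 mice, at 116 CPM with and 64.8 CPM without in CAL-101 mice. In control mice it had 135 CPM with and 72.2 CPM without. Serpinb9 was lower with Gzmc in all 6 mice, at 419 CPM with and 487 CPM without in CAL-101 mice. In control mice it had 421 CPM with and 499 CPM without. A Gzmf UMI gave the same directions as Gzmc in all 6 mice.

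The genes whose pattern was most like each serpin were ranked by Pearson r of log2(CPM + 1) over 67 sums of 1 cluster in 1 mouse with at least 50 cells, among 9555 genes. Serpinb9 and Serpinb6b were most like each other (r = 0.94). After Serpinb6b, Serpinb9 was closest to Fhl2 (0.91), Ctla2b (0.90), Car5b (0.90) and Ccr2 (0.89), and after Serpinb9, Serpinb6b was closest to Gzmb (0.90), Ctla2b (0.89), Dok2 (0.88) and Gpr171 (0.88). Serpinb9b was closest to Gzma (0.92), then Prf1 (0.87), Klra5 (0.86), Adamts14 (0.85) and Serpinb9 (0.84). Its r with Gzmm was 0.30, taken without the limit of 20 CPM used for the ranking. Gzmm averaged only 4.72 to 7.56 CPM in T cells and 6.26 to 6.29 CPM in NK cells, so this r is not set against the others. Serpine2 was closest to Car5b (0.83), Arl4d (0.80), Sytl2 (0.78), Igsf5 (0.77) and Kcnk10 (0.77). Serpinb6a had no granzyme among its 5 nearest genes (Gzmf was at 0.75), which were Capg (0.80), Ssr4 (0.79), S100a4 (0.77), Pold4 (0.77) and Hsd17b10 (0.76). The sums share mice, libraries and cell types and include both groups, so these values describe the pattern and carry no test.

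**Figure D4:**
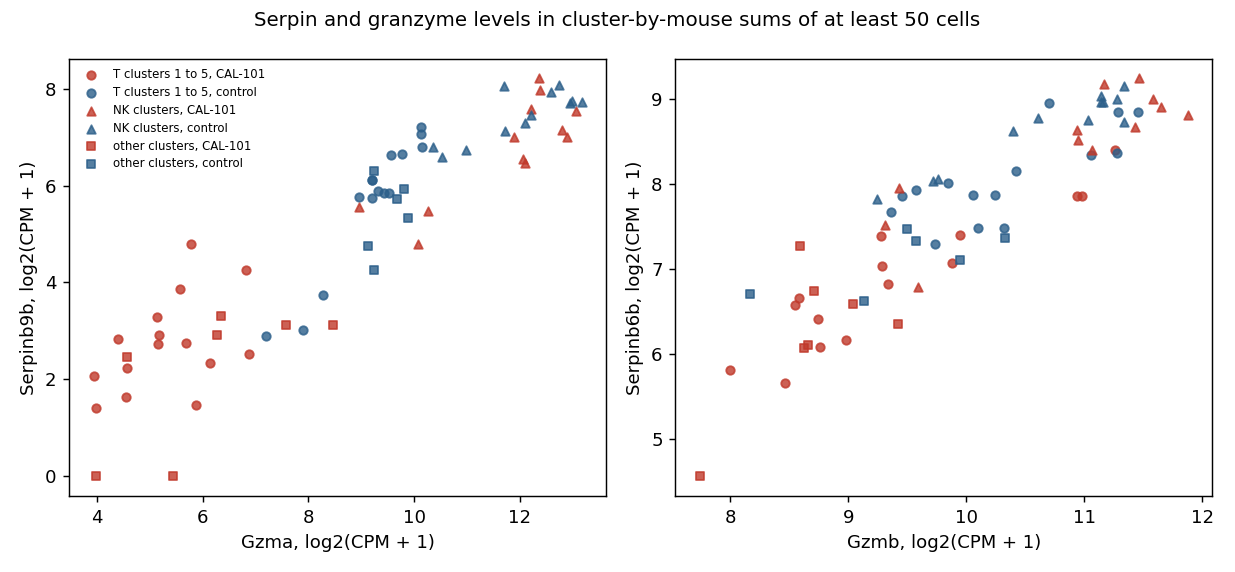
Serpinb9b against Gzma (left) and Serpinb6b against Gzmb (right), both axes in log2(CPM + 1), in 67 cluster-by-mouse sums of at least 50 cells; circles are T clusters 1 to 5, triangles NK clusters and squares other clusters, with CAL-101 in red and control in blue. In the left panel most CAL-101 T cell sums lie low on both axes and the NK sums lie high on both (r = 0.92), and in the right panel the clusters form a single band (r = 0.90).

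The serpin block of chromosome 13 was then read gene by gene. It holds 32 RefSeq genes that lie in or overlap the interval spanned by the 4 clade B genes, of which 7 others had enough counts to be tested in T cells. Of these, 4 fell in CAL-101 T cells, where 9.63% of all genes tested passed as lower. They were Serpinb1b (log2 difference -0.64, edgeR adjusted p = 0.0353), the long non-coding RNA genes Gm36099 (-1.69, 0.0317) and 1110046J04Rik (-0.65, 0.0175), and Nqo2, a quinone reductase (-0.56, 0.00341). Gm36099 had only 73 UMIs over all cells of the series, so its call rests on few counts. Gm6093 (0.55, 0.0532), Serpinb6c (-0.55, 0.305) and Ripk1, a kinase of cell death signalling (-0.19, 0.12), did not pass. Gm36099 lies within the span of Serpinb9b, and 1110046J04Rik and Nqo2 within that of Serpinb6a, and Ripk1 overlaps its end. The sources used here do not say whether counting used strand, so reads of such overlapping genes may not be told apart.

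The near copies of Serpinb9 in the same block were almost silent. Serpinb9c, Serpinb9d, Serpinb9e, Serpinb9f, Serpinb9g and Serpinb9h together with Serpinb6d and Serpinb6e had 0 to 3 UMIs each over all 45477 cells, and Serpinb6c had 168. Serpinb9b had 46213 UMIs and Serpinb9 136371. The sources used here do not say how reads shared between such copies were counted, so low counts of near copies are uncertain.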

How the data were processed

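Single-cell 3′ RNA libraries with surface protein tags were made from 6 tumours; only RNA was used here. The authors deposited whole-number UMI counts per gene and cell, per the file headers an output of Cell Ranger 7.1.0. The submitters' processing notes name mm10 and Seurat. The sources used here do not describe cell filters, labelling or doublet removal. No doublet caller was run; an alternative left out the 5% of cells with most UMIs per library.

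Counts of each class were summed within a mouse, and edgeR 4.0.16 in R 4.3.3 tested the sums (quasi-likelihood fit with group alone, TMM scaling, filterByExpr), Benjamini-Hochberg adjusted over all genes at 0.05. The smallest summed class was 5512966 UMIs, in NK cells of CAL-101 mouse 2. DESeq2 1.42.0 was an alternative. Standard errors are the log2 difference over the root of the F statistic, and intervals of log2 differences are 1.96 of them either way. Such intervals are narrower than the edgeR p values imply, since that test allows for the few mice. Shares used Python 3.11.15, numpy 2.4.6, pandas 2.3.3 and scipy 1.17.1, and plots matplotlib 3.10.9. Exact binomial and Poisson intervals cover counting error only. The fits were tested on simulated counts. Nothing says whether the mice were handled in batches.

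The 5 genes, lists and tests were chosen with earlier results of these data known. Named genes are the 5 serpins, up to 4 of each list with the smallest p per class, and the 5 genes most like each serpin with at least 20 CPM in a sum, without ribosomal, mitochondrial, Gm and Rik entries; genes of the chromosome 13 block were named after their values were seen. Co-detection in clusters 1 to 5 was chosen after the data were seen. Of the gene identifiers, 32158 matched the names table, and all 5 genes matched RefSeq. One result of these lists in NK cells is not reported here.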

Additional observations from a re-analysis of the deposited data

How the results depend on the processing

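The 5 T cell differences kept their sign under every alternative run. With the same mean cluster makeup they were -2.72 (Serpinb9b), -1.23 (Serpine2), -0.95 (Serpinb6b), -0.71 (Serpinb9) and -0.46 (Serpinb6a). Without cells holding an NK marker UMI they were -4.30 (Serpinb9b), -2.33 (Serpine2), -1.55 (Serpinb6b), -1.20 (Serpinb9) and -0.74 (Serpinb6a). Serpinb9b in clusters 1 to 5 was -3.97. Leaving out each mouse gave -3.55 to -3.26 for Serpinb9b and -1.12 to -0.91 for Serpinb9. Genes called in T cells numbered 3194, with 2124 under a stricter filter (10 CPM in 3 mice) and 1429 to 3850 without 1 mouse (1429 without control mouse 3, 1640 without CAL-101 mouse 3, 1712 without control mouse 1). With the replicate number as a block they numbered 1495. The labels do not state that the numbers pair the mice. Deviations of same-numbered mice correlated at -0.48, -0.47 and -0.14 in T cells and at most 0.24 in NK cells. Those of differently numbered mice ran from -0.35 to 0.50 in T cells. With 3 mice per group these values cannot settle whether the mice were paired. Genes called in NK cells numbered 686, against 213 in clusters 0, 7, 9 and 13, 1323 with no filter on low counts, 473 with the block and 4 to 1589 without 1 mouse (4 without CAL-101 mouse 3, 10 without control mouse 3, 25 without control mouse 1, 146 without CAL-101 mouse 1, 435 without CAL-101 mouse 2, 1589 without control mouse 2). Without NK cells holding a T marker UMI, 1 to 9 cells per mouse were left, and edgeR called 0 of 221 genes (8 at an unadjusted p under 0.05), with no value for the serpins. DESeq2 called 3474 genes in T cells and 927 in NK cells. The NK difference of Serpinb9b was -0.55 to -0.36 without 1 mouse and -0.32 in clusters 0, 7, 9 and 13 (edgeR adjusted p = 0.208). Under the replicate block it was -0.43 (edgeR adjusted p = 0.041). Its NK share differed by -5.13 points, by -5.77 to -4.44 without 1 mouse, -2.31 at 800 UMIs per cell and -9.03 without thinning, and the unthinned shares of Serpinb9 and Serpine2 differed by -4.30 and -2.38 points. The cause of these shifts was not tested. NK differences near 0 changed sign, none of them past the test. On the log2 scale Serpinb6b (-0.09) was 0.0053 in clusters 0, 7, 9 and 13, 0.0089 with the mean makeup, and -0.16 to 0.018 without 1 mouse. Serpinb9 (-0.01) was 0.082 in those clusters, 0.063 with the mean makeup, 0.00097 without cells of over 20% mitochondrial or under 1000 UMIs, and -0.029 to 0.035 without 1 mouse, and Serpine2 (-0.18) was 0.026 in those clusters. The NK share of Serpinb9 (-1.02 points) was 0.807 in those clusters and -2.50 to 0.741 without 1 mouse. That of Serpine2 (-0.0356 points) was 0.534 at 800 UMIs, 0.863 in those clusters, 0.178 without cells of over 20% mitochondrial UMIs and -0.741 to 0.727 without 1 mouse. Of all alternative values, 15 changed sign, 14 moved beyond the spread between mice, 17 lost and 2 gained a call or, for counts of genes, moved by over 1.5 times.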

Other observations

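Of 57 other Serpin genes, 13 had enough counts in T cells to be tested, of which 2 fell and none rose in CAL-101 mice (edgeR, median log2 difference -0.15 beside 0.00 over all genes tested). Of all genes tested in T cells, 9.63% passed as lower. Serpine3 averaged 1.62 ± 0.10 CPM in CAL-101 T cells and 2.42 ± 0.11 CPM in control T cells (edgeR adjusted p = 0.01), and Serpinb1b is given with its block of chromosome 13. Serpinb1a, an inhibitor of neutrophil elastase and cathepsin G, averaged 20.3 ± 9.09 CPM in CAL-101 T cells and 60.7 ± 41.0 CPM in control T cells and did not pass (log2 difference -1.61, edgeR adjusted p = 0.0933). Serpini1 had a log2 difference of 0.21 (edgeR adjusted p = 0.0653). In NK cells none of 10 tested passed; Serpinb1a averaged 3.89 ± 1.58 CPM in CAL-101 mice and 11.7 ± 6.64 CPM in control mice (edgeR adjusted p = 0.0944). Serpinb1b, Serpine3 and Serpina3g in NK cells had adjusted p of 0.217, 0.3 and 0.358.

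Of 10 genes for proteins that granzymes or caspases cut and for caspases themselves, 2 rose in T cells of CAL-101 mice and none fell. Their median log2 difference in T cells was 0.14. Among all genes tested in T cells, 9.46% passed as higher and 9.63% as lower, and nothing is read from this count. Lmnb1, a lamin of the nuclear envelope, rose in T cells (256 ± 23.4 CPM in CAL-101 mice and 184 ± 4.89 CPM in control mice, edgeR adjusted p = 0.00708) and in NK cells (log2 difference 0.38, edgeR adjusted p = 0.0254). Parp1, a DNA repair enzyme, had a log2 difference of 0.51 in T cells (edgeR adjusted p = 0.00878) and 0.51 in NK cells (edgeR adjusted p = 0.0361). Bid, Dffa and Casp8 in T cells each had an adjusted p of 0.13, and Bid in NK cells 0.103.

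Of 11 other proteases that these serpins can inhibit, or relatives of them, 8 were tested in T cells and 1, Ctsg, fell. The share passing as lower among all genes tested in T cells was 9.63%. Ctsg was below 1 CPM in both groups of T cells (0.0542 CPM in CAL-101 mice and 0.588 CPM in control mice, edgeR adjusted p = 0.0182). Ctsb, Mcpt8 and Ctsl had adjusted p of 0.108, 0.113 and 0.144 in T cells. None of 7 passed in NK cells, where Prtn3, Plau, Ctsl and Plat had adjusted p of 0.205, 0.321, 0.368 and 0.623.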
